A study of Mus musculus with 8 samples.

Results

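The genes described here are 9 regulators of apoptosis: Bcl2, Bcl2l1 and Mcl1, which keep cells alive, Bcl2l11, Bax and Bak1, which commit them to death, and the initiator caspases Casp2, Casp8 and Casp9. They were chosen by name. Every non-control probe that carried one of these gene names on the array was taken, which gave 17 of 41174 probes for 9 of 19674 named genes, with no probe found under an older name. In the series, RNA that co-precipitated with an anti-DAZL antibody (immunoprecipitate, IP) was set beside input RNA of the same kind of lysate on 1-colour Agilent arrays. The lysates were of gonads of E14.5 mouse embryos with strain background MCH, made from lots of 50 gonads, and no genotype, agent or transgene was named for them. The 4 groups of 2 arrays each were XX input, XX IP, XY input and XY IP. There was no IP with a control antibody among the arrays used here, so each IP was compared with the input alone, and the labels do not say whether the replicates came from separate lots, so p-values measure the spread between these samples, which may be technical.

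DAZL is an RNA-binding protein of germ cells that acts on the mRNAs to which it binds. Apoptosis is controlled in part by the Bcl2 family at the mitochondrion. Pro-survival members such as Bcl2, Bcl-xL (the main product of Bcl2l1) and Mcl1 hold Bax and Bak1 in check, BH3-only members such as Bim (the product of Bcl2l11) release that block, and Bax and Bak1 then open pores in the outer mitochondrial membrane. Cytochrome c leaks out and, with Apaf1, activates caspase 9. Caspase 8 is activated at death receptors in the cell membrane, and caspase 2 on a complex of Pidd1 and Cradd. Germ cells of the fetal mouse gonad are lost by apoptosis in both sexes, and Bax is known to be needed for much of that loss.

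A signal below is the log2 intensity of a probe relative to the 75th percentile of its array, so that 0 is that percentile. Tests covered the 18265 probes that the scanner software marked as well above background on both arrays of some group. Of the 17 probes 12 were tested, at least 1 for each gene, and 4 were above background on all 8 arrays. The IP arrays were much dimmer than the inputs. On them 6068 to 9468 probes were above background, against 16713 to 20391 on the inputs, and the lowest signal that counted as above background was 0.03 to 1.02 in the IPs and -3.59 to -2.34 in the inputs. A transcript of moderate level in the input could thus fall out of sight in the IP, and only a lower limit of its fall is then known. As a check of the precipitation, both probes of Dazl itself were higher in the IP, by 3.09 and 2.69 in XX and by 2.93 and 2.06 in XY on the log2 scale. Xist was at least 5.52-fold higher in the XX than in the XY inputs at A_51_P145453, its only tested probe. That probe also passed as higher in the XY IP by the limits given below, with means of -4.74 in the XY inputs and -1.52 in the XY IPs. Both of those groups were below background, so such a call can rest on signal below background. Of 7 probes for 6 germ cell markers, 6 were above background on both arrays of each input, among them that of Ddx4. A rise in the IP was not particular to Dazl. Of 6 tested probes of these markers 4 were higher at an adjusted p under 0.05 in limma in each sex, against 25.9% of all tested probes in XX and 20.2% in XY. The markers of other cell types were mostly below background in the IPs, with 0 of 5 probes of Sertoli cells and 0 of 5 of Leydig cells above it on both XX IP arrays, and 2 and 1 on both XY IP arrays. In the inputs 2 of 5 probes of each of these cell types were above it on both XX arrays, and 4 of 5 of each on both XY arrays. Of 4 probes for red blood cells, all 4 were above background on both arrays of each input, 1 on both arrays of each IP, and 1 on neither.

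In this design a rise in the IP means that a probe stood higher against the 75th percentile on the IP arrays than on the input arrays. On every IP array this reference level lay below the lowest signal that counted as above background (0.03 to 1.02). On the inputs it lay above that signal (-3.59 to -2.34). The differences and fold limits thus rest on a reference that was below background in the IPs. The size of a rise depends on how arrays are brought to a common scale. Scaling to the 50th percentile in place of the 75th moved the median difference of all tested probes from 0.09 to -1.92 in XX and from -0.03 to -1.90 in XY. It left the order of the probes unchanged. The place among all tested probes is therefore given beside the differences of Casp2 and Casp9 and that of Mcl1 A_51_P238786 in XX. Normexp, another background correction, changed that order as well.

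Of the 12 tested probes 1 passed both limits for enrichment in XX, that of Mcl1, and 2 passed in XY, those of Casp2 and Casp9. The limits were an adjusted p under 0.05 in limma and a change of at least 4-fold. Among all tested probes 14.1% passed them as higher in XX and 10.2% in XY, so 1 and 2 of 12 are near the background of the array. Lower in the IP were 1 probe in XX, of Bak1, and 1 in XY, of Bax, against 9.89% and 7.67% of all probes. By adjusted p alone 5 probes were higher and 3 lower in XX, against 25.9% and 22.8% of all probes, and 3 were higher and 1 lower in XY, against 20.2% and 20.6%. The median difference of the 12 probes was 0.25 in XX and -0.18 in XY, beside 0.09 and -0.03 for all tested probes.

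**Figure D1:**
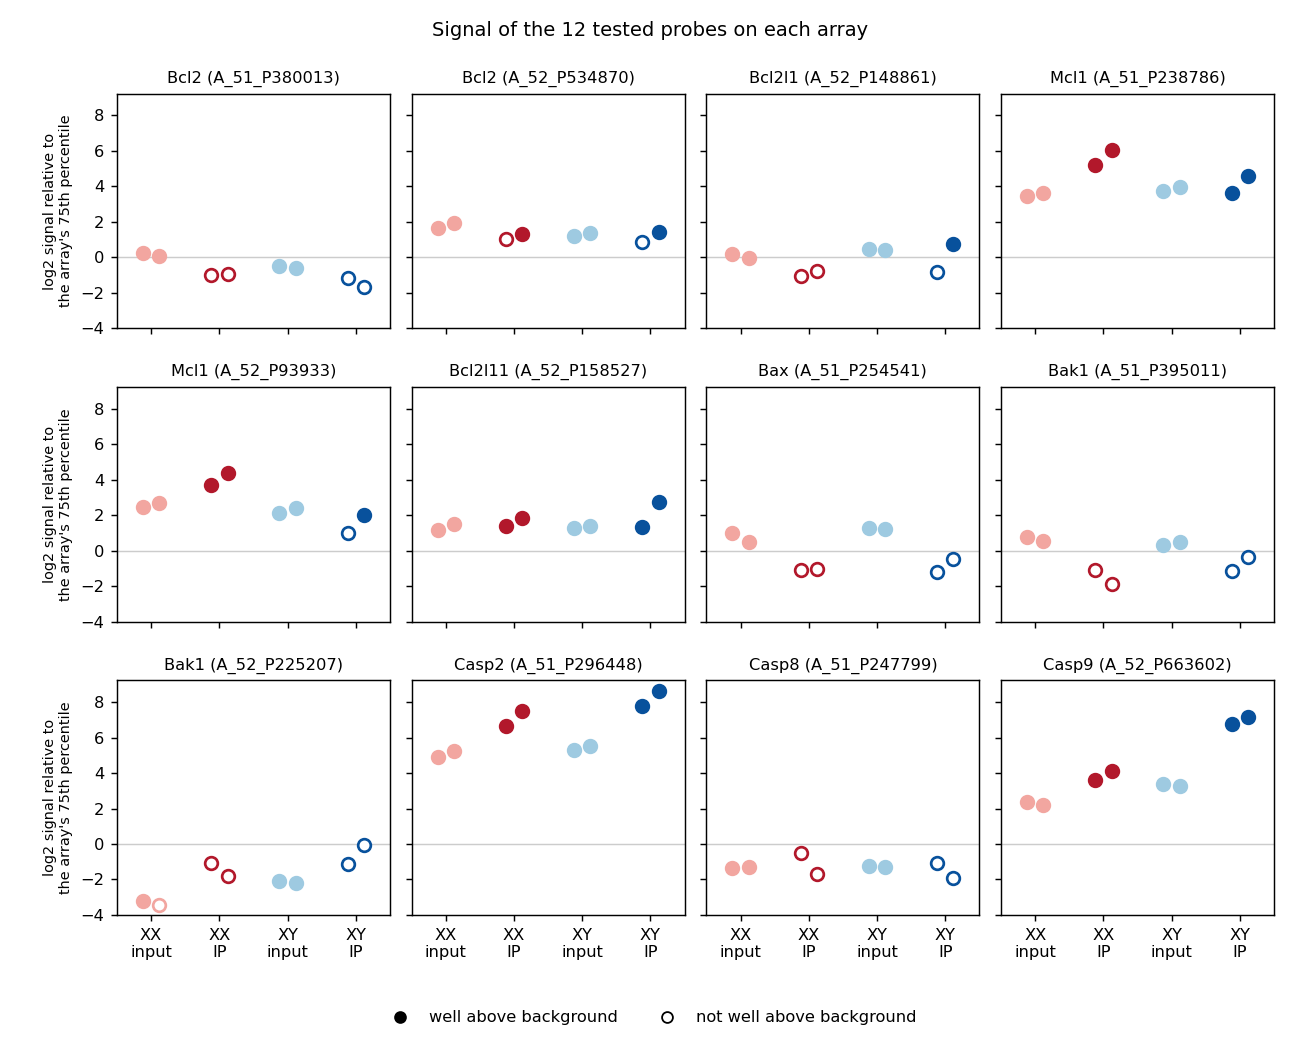
Log2 signal relative to the array's 75th percentile (y axis) of the 12 tested probes on each of the 8 arrays, by group (x axis), with 1 point per array. Filled points were well above background and open points were not. On this scale Casp2 and Casp9 lay higher in both IPs than in their inputs, both Mcl1 probes lay higher in the XX IP than in the XX input, and the IP points of Bax and Bak1 are open throughout.

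Among the pro-survival genes, Mcl1 was higher in the XX IP than in the XX input at both of its probes, and in XY at neither by the test. Mcl1 encodes a short-lived inhibitor of Bax and Bak1. Its probe A_51_P238786 (mm8, chromosome 3, 95748337 to 95748396, plus strand) gave 3.47 and 3.63 in the XX inputs and 5.22 and 6.05 in the XX IPs. The difference was 2.08 ± 0.45 on the log2 scale (SE, n = 2 and 2), or 4.23-fold, with an adjusted p of 0.00305 in limma. It exceeded that of 86.7% of all tested probes, 76.5% of those above background on all 8 arrays and 50.6% of the tested probes after normexp. In XY the same probe gave 3.75 and 3.95 in the inputs and 3.63 and 4.56 in the IPs, which overlap, and the difference was 0.25 ± 0.45 (adjusted p = 0.686), or -1.62 with the 50th percentile and -1.26 after normexp. This call in XX sat close to the 4-fold limit. It was lost when the second XX IP array was left out (1.67), with quantile normalization (1.70) and with scaling to the probes above background on all arrays (1.66), while the difference was 0.07 with the 50th percentile and 0.02 after normexp.

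Probe A_52_P93933 of Mcl1 lies upstream on the same strand (chromosome 3, 95747025 to 95747084). In the XX inputs it gave 2.48 and 2.69, and in the XX IPs 3.69 and 4.37. The groups did not overlap, and the difference of 1.44 ± 0.45 passed the adjusted p (0.0206) but not the fold limit. With the 50th percentile it was -0.56 and after normexp -0.37. In XY the order was the other way round, with 2.10 and 2.39 in the inputs and 1.00 and 2.02 in the IPs, of which the first IP array was not above background. That difference, -0.73 ± 0.45, did not pass the test (adjusted p = 0.216).

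Bcl2, the founding pro-survival member of the family, was not higher in the IP of either sex. It had 3 probes, all on the minus strand of chromosome 1 in mm8. A_52_P534870 (108365763 to 108365822) gave 1.64 and 1.93 in the XX inputs, 1.04 and 1.33 in the XX IPs, 1.18 and 1.38 in the XY inputs, and 0.83 and 1.44 in the XY IPs. It was above background on 1 of 2 IP arrays in each sex. The XX IPs lay under the XX inputs and the XY groups overlapped, and the differences of -0.60 ± 0.40 in XX and -0.15 ± 0.40 in XY did not pass the test (adjusted p = 0.234 and 0.797).

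A_51_P380013 of Bcl2 (108539940 to 108539999) lies far upstream of it on that strand. It was above background in all 4 inputs, at 0.22 and 0.05 in XX and -0.51 and -0.61 in XY, and in none of the 4 IPs, at -1.02 and -0.93 in XX and -1.18 and -1.70 in XY. The fall of 1.11 in XX passed the adjusted p (0.0326) and that in XY, -0.88, did not (0.089). The XY value passed both limits with quantile normalization (-2.20, adjusted p = 0.0291) and with the 50th percentile (-2.75, adjusted p = 0.00273), and was 0.00 after normexp. No fold is given for either, since the lowest signal that counted as above background in the IPs was higher than the input signal. A_52_P438280 of Bcl2 (108538280 to 108538339) was above background on no array and was not tested.

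Bcl2l1 had 3 probes, all on the minus strand of chromosome 2, of which 1 was tested. A_52_P148861 (152472336 to 152472395) gave 0.20 and -0.07 in the XX inputs and -1.08 and -0.76 in the XX IPs, which were not above background. In XY the inputs were 0.46 and 0.41 and the IPs -0.85 and 0.77, of which the second alone was above background. The differences were -0.99 ± 0.50 in XX and -0.48 ± 0.50 in XY and did not pass the test (adjusted p = 0.125 and 0.472). With the 50th percentile they were -2.99 and -2.34 and passed both limits (adjusted p = 0.0128 and 0.0334), where 47.3% and 45.9% of all tested probes were lower. After normexp they were -0.25 and -0.18. The XY difference ran from -1.28 to 0.33 when 1 array was left out. Probes A_51_P299454 (152521435 to 152521494) and A_52_P510877 (152520890 to 152520949) were above background on no array.

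Bcl2l11, whose product Bim binds the pro-survival proteins and can activate Bax, was measured in every sample but was not higher in either IP by the test. Its probe A_52_P158527 (chromosome 2, 127853756 to 127853815, plus strand) gave 1.18 and 1.51 in the XX inputs, 1.41 and 1.85 in the XX IPs, 1.27 and 1.37 in the XY inputs and 1.32 and 2.75 in the XY IPs. Input and IP overlapped in both sexes, and the XY IP arrays differed most, with an SD of 1.01 (n = 2). The differences were 0.29 ± 0.49 in XX (95% interval -0.77 to 1.35, adjusted p = 0.642) and 0.71 ± 0.49 in XY (-0.35 to 1.78, adjusted p = 0.261), and both were negative with the 50th percentile (-1.72 and -1.15) and after normexp (-0.46 and -0.22). Without the first XY IP array the XY difference was 1.43, and without the second it was -0.001. The other probes of Bcl2l11 were not tested. A_51_P484880, whose position in the files spans 127838598 to 127849693, was above background on 1 XX input array, and A_52_P348214, which spans 127820441 to 127821122, on none.

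The pore-forming effectors were below background in all IPs. Bax (A_51_P254541, chromosome 7, 45334141 to 45334296, minus strand, a span longer than the probe) gave 0.97 and 0.51 in the XX inputs and -1.10 and -1.02 in the XX IPs. In XY it gave 1.27 and 1.24 in the inputs and -1.21 and -0.47 in the IPs. The difference was -1.80 ± 0.41 in XX, with an adjusted p of 0.00398. In XY it was -2.10 ± 0.41, with an adjusted p of 0.00235. Because the IPs were below background, these stand for a fall of at least 1.06-fold in XX and at least 1.73-fold in XY. Only the XY fall passed the 4-fold limit, and it did not do so without the first XY IP array (-1.72) or after normexp (-0.60, adjusted p = 0.283, and -1.01 with outlying local backgrounds replaced). With quantile normalization it was -3.11 and missed the adjusted p (0.0567). The XX value passed both limits with the deposited table (-2.08), with scaling to the probes above background on all arrays (-2.23), with the 50th percentile (-3.81) and without the second XX input array (-2.03).

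Bak1, the partner of Bax in making pores, had 2 tested probes on the minus strand of chromosome 17. A_51_P395011 (26747611 to 26747670) gave 0.78 and 0.56 in the XX inputs against -1.12 and -1.86 in the XX IPs, and 0.30 and 0.46 in the XY inputs against -1.17 and -0.36 in the XY IPs. The inputs lay above the IPs in both sexes. The fall of 2.16 in XX passed both limits (adjusted p = 0.00199) and stands for at least 1.01-fold, while that in XY, -1.15, did not pass (adjusted p = 0.0539). Without the second XX IP array the XX value was -1.79 and under the fold limit, and after normexp it was -0.70.

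The other probe of Bak1, A_52_P225207 (26748876 to 26748935), went the opposite way. It was dim throughout, at -3.20 and -3.41 in the XX inputs, -1.08 and -1.81 in the XX IPs, -2.11 and -2.20 in the XY inputs and -1.10 and -0.05 in the XY IPs. It was above background on 1 XX input array and both XY input arrays and on no IP array. Its differences, 1.86 in XX and 1.58 in XY, passed the adjusted p (0.00581 and 0.0167) but compare an IP below background with a dimmer input, so no fold is given. They turned negative with the 50th percentile (-0.15 and -0.29), and in XX with quantile normalization (-0.84).

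The initiator caspases held the 2 probes that were enriched in XY. Casp9, which starts the caspase cascade on the apoptosome, had a single probe (A_52_P663602, chromosome 4, 141087947 to 141088006, plus strand). It gave 3.39 and 3.29 in the XY inputs and 6.75 and 7.18 in the XY IPs, a difference of 3.62 ± 0.40 or 12.3-fold (adjusted p = 9.01e-05). This exceeded 98.3% of all tested probes, and 96.0% of the 5481 probes above background on all 4 XY arrays. In the XX inputs it gave 2.39 and 2.21 and in the XX IPs 3.60 and 4.11, a difference of 1.56 ± 0.40 or 2.94-fold (adjusted p = 0.00719), which passed the adjusted p but not the fold limit. The XX difference exceeded 79.5% of all tested probes, 67.1% of those above background on all 8 arrays and 49% of the tested probes after normexp. IP and input did not overlap in either sex. With the 50th percentile the difference was 1.76 in XY and -0.45 in XX, and after normexp 1.93 and -0.03, so the XY value kept its direction under these settings but fell under 4-fold.

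Casp2, the initiator caspase activated through Pidd1 and Cradd, also had a single probe (A_51_P296448, chromosome 6, 42211975 to 42212034, plus strand). Its signal was 5.32 and 5.54 in the XY inputs and 7.80 and 8.63 in the XY IPs. The difference of 2.78 ± 0.45, or 6.88-fold (adjusted p = 0.000759), was larger than that of 95.1% of all tested probes. In XX the inputs were 4.93 and 5.26 and the IPs 6.69 and 7.48. Here the difference of 1.99 ± 0.45, or 3.97-fold (adjusted p = 0.00365), fell just short of the 4-fold limit. It exceeded 85.6% of all tested probes, 75% of those above background on all 8 arrays and 47.9% of the tested probes after normexp. It passed that limit without the second XX input array (2.16) or the first XX IP array (2.39). The IPs lay above the inputs in both sexes. With the 50th percentile the differences were 0.92 in XY and -0.02 in XX, and after normexp 1.01 and -0.06.

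Casp8, the initiator caspase of death receptors, was near the limit of detection. A_51_P247799 (chromosome 1, 58789303 to 58789362, plus strand) was above background in all 4 inputs, at -1.32 and -1.30 in XX and -1.23 and -1.32 in XY. It was above background in no IP, with -0.52 and -1.69 in XX and -1.04 and -1.93 in XY. Input and IP overlapped in both sexes and the differences of 0.21 and -0.22 did not pass the test (adjusted p = 0.743 and 0.744). They were -1.80 and -2.08 with the 50th percentile, of which the XY value passed both limits, and 0.46 and 0.20 after normexp. An enrichment of Casp8 smaller than the gap between its input and the lowest signal above background in the IPs was not detectable.

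**Figure D2:**
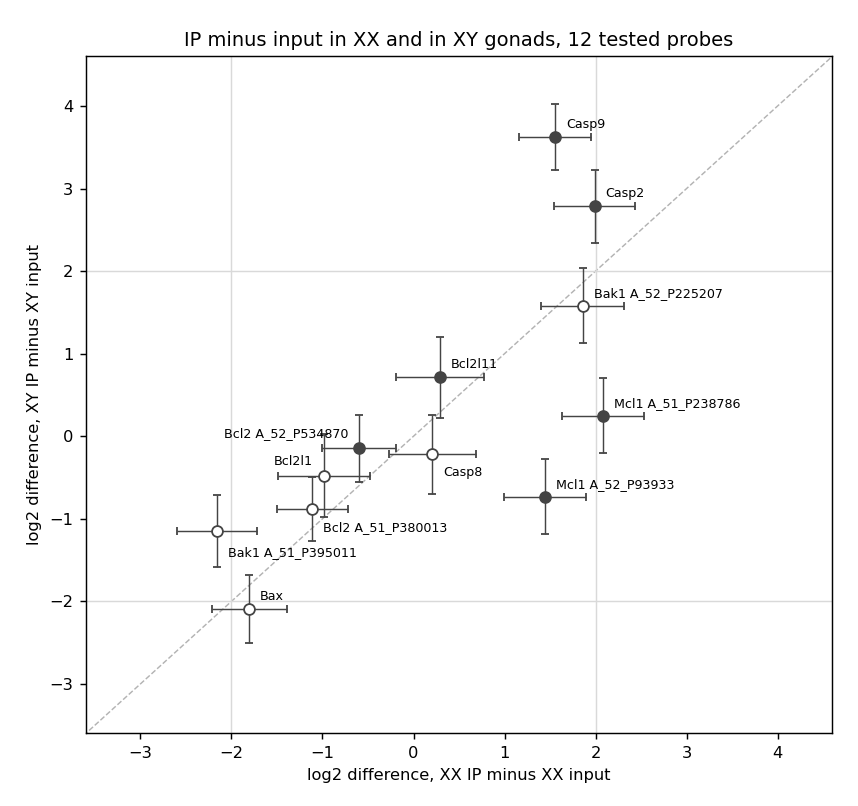
Log2 difference between IP and input in XX (x axis) and in XY (y axis) for the 12 tested probes, with bars for the standard error, the dashed line for equal differences and grey lines at 4-fold. Open points have an IP or an input below background on both arrays in at least 1 sex. Casp9 (1.56 in XX, 3.62 in XY) lies above the dashed line and both Mcl1 probes (2.08 and 0.25, 1.44 and -0.73) lie below it. With the 50th percentile all points shift down and to the left, to -0.45 and 1.76 for Casp9.

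Whether the recovery of these transcripts differed between the sexes was tested as the XX difference minus the XY difference. In limma 0 of 12 probes passed an adjusted p under 0.05, where 2.18% of all tested probes passed as higher and 1.12% as lower in XX. At an unadjusted p under 0.05, 2 probes were higher in XX, both of Mcl1, and 1 was lower, that of Casp9, against 10.2% and 6.25% of all tested probes. For Casp9 the value was -2.07 ± 0.56 (95% interval -3.29 to -0.84, adjusted p = 0.07), at the lower end of all probes, above just 2.6% of them. For Mcl1 it was 1.83 ± 0.64 (0.43 to 3.23, adjusted p = 0.16) and 2.18 ± 0.64 (0.78 to 3.58, adjusted p = 0.0932), above 93.4% and 95.7% of all probes. For Casp2 it was -0.79 ± 0.63 (-2.17 to 0.58, adjusted p = 0.609).

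The Casp9 and Mcl1 values passed the threshold under some settings and not under others. The adjusted p of Casp9 was 0.031 with quantile normalization, 0.0398 with scaling to the probes above background on all arrays, 0.0403 among those probes alone, 0.0419 without the second XX IP array, 0.0442 without the first XY IP array, and 0.635 after normexp, the highest over these settings. Mcl1 A_51_P238786 reached 0.0427 with quantile normalization, 0.0405 with scaling to the probes above background on all arrays and 0.0416 without the second XY IP array. Mcl1 A_52_P93933 reached 0.0355 with that scaling and 0.0218 without that array. After normexp these probes gave 1.28 (adjusted p = 0.759) and 0.72 (adjusted p = 0.766), or 1.64 (adjusted p = 0.329) and 1.156 (adjusted p = 0.285) with outlying local backgrounds replaced, and with the 50th percentile their adjusted p was 0.711 and 0.61. All XX arrays shared 1 slide and all XY arrays another. Each IP could therefore be set against an input of its own slide, but an effect of the slide and one of sex cannot be told apart here.

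In the inputs, which measure the RNA of the whole gonad, none of the 12 probes differed between the sexes at an adjusted p under 0.05, where 5.87% of all tested probes were higher and 6.1% lower in XX. At an unadjusted p under 0.05, 0 were higher and 2 were lower in XX, against 12.1% and 11.7% of all tested probes. These were Casp9, at -1.04 ± 0.40 (adjusted p = 0.124), and Bak1 A_52_P225207, at -1.15 ± 0.46 (adjusted p = 0.141). This Bak1 probe was tested only because it was above background on both XY inputs, where it is higher, so nothing is read from its difference. Casp9 and the Bak1 probe became significant when the 4 input arrays were fitted alone (adjusted p = 0.00502 and 0.00425), as did Bcl2 A_51_P380013 at 0.70 (adjusted p = 0.0163). In that fit 22.6% of all tested probes were higher and 21.5% lower in XX, so 1 and 2 of 12 do not exceed the share of the array. Casp9 also passed with quantile normalization (0.0372) and with scaling to the probes above background on all arrays (0.0468). In whole gonads fewer cells of a type and less RNA per cell cannot be told apart. The summed signal of the germ cell markers was 6.44 to 6.59 in the XX inputs and 7.52 to 7.74 in the XY inputs on the log2 scale, with 1 of 6 tested probes higher and 3 lower in XX. The markers did not move together. The means in the XX and XY inputs were 1.81 and 5.99 for Dppa3, 4.96 and 5.15 for Ddx4, and 4.41 and 0.97 for Sycp3. The part of these marker differences in the Casp9 difference was not tested.

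On the scale of the 75th percentile the order of the 4 groups was not the same for every gene. For Casp9 it ran XX input, XY input, XX IP, XY IP with no overlap between neighbours, although the 2 inputs did not differ by the test. For Casp2 the order was the same, again with no overlap and with inputs that did not differ by the test. For Mcl1 A_51_P238786 the XX IP was highest and overlapped no other group, while the XY IP spanned the XY input. These orders depend on the scaling. The mean of the XX IP was below that of the XX input for Casp9 and Casp2 when the 50th percentile was used (-0.45 and -0.02), and Mcl1 A_51_P238786 then gave IP minus input values of 0.07 (XX) and -1.62 (XY). The IPs of the sexes were not tested against each other.

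The genes whose signal followed Casp2 and Casp9 most closely over the 8 arrays were searched among the 4206 probes above background on all of them. For Casp2 the nearest was Ube2n (Pearson r = 0.9986), a ubiquitin-conjugating enzyme, followed by Cdc37l1, BC005537, Gse1 and Zfp42 (r of 0.9968 or more). For Casp9 it was Zfp106 (r = 0.9984), followed by Dynll2, Polr3gl, H2az2 and Arf3 (r of 0.9923 or more). These correlations are dominated by the gaps between 4 groups, share the 8 arrays and their scaling, and are given as a description.

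Beyond the 9 genes, other genes of the apoptosis machinery were described from a list of which 58 genes had 103 probes on the array, while Bcl2a1a and Bcl2a1d had none of their own, and 48 probes of 38 genes were tested. In XX 10 probes were higher and 5 lower in the IP by both limits, against 14.1% and 9.89% of all tested probes. In XY 9 were higher and 4 lower, against 10.2% and 7.67%. The median difference was 0.08 in XX and 0.41 in XY, beside 0.09 and -0.03 for all tested probes. With the 50th percentile 1 and 2 of the higher probes still passed, where 1.03% of all tested probes were higher in XX and 1.2% in XY. After normexp 0 and 1 did, where 0.433% and 0.345% were higher. Of the lower probes 5 and 4 still passed with the 50th percentile, where 47.3% and 45.9% of all tested probes were lower. After normexp 3 and 3 did, where 11.2% and 5.84% were lower. The probes higher in the IP kept a positive difference under every scaling and under normexp, except Fas in XX (-0.57) and Casp12 in XY (-0.07) with quantile normalization, both of which were below background in that IP and that input.

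Of the p53 family and its regulators, 3 of 6 tested probes were higher by both limits in each sex, against 14.1% of all tested probes in XX and 10.2% in XY, and 0 were lower, against 9.89% and 7.67%. Mdm2, the ubiquitin ligase that holds p53 down, was higher by 3.41 ± 0.40 in XX and 3.22 ± 0.40 in XY. Trp53 itself (A_52_P781398) was higher by 3.18 ± 0.39 and 3.24 ± 0.39. Mdm4, the relative of Mdm2, was higher by 3.40 ± 0.42 and 3.14 ± 0.42 at A_52_P596201, which was above background on 1 of 2 IP arrays in each sex. Mdm2 and Trp53 were above background on all 8 arrays. The other tested probes of Trp53 and Mdm4 and that of Trp73 passed the adjusted p alone in XY, at 1.62, 1.40 and 1.87, with the XY IPs of Trp53 and Trp73 below background. With the 50th percentile and after normexp none of the 3 called probes reached 4-fold in either sex. Mdm2 was then at 1.40 in XX and 1.35 in XY with the 50th percentile, and at 1.22 and 1.07 after normexp.

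Among the other members of the Bcl2 family, Pmaip1, which encodes the BH3-only protein Noxa, an antagonist of Mcl1, was higher in the IP by 3.25 ± 0.49 in XX and 4.54 ± 0.49 in XY, and above background on all 8 arrays. Its inputs differed too, at -3.54 ± 0.49 for XX minus XY (adjusted p = 0.00052). Bok, a relative of Bax and Bak1, was lower in the IP by 2.91 in XX and by 2.05 in XY. Bmf, another BH3-only gene, was higher by 4.43 ± 0.78 in XY at A_51_P482239, which was above background on both XY IP arrays but on 1 of 2 XY inputs, where it gave -5.23 and -2.02. Of the XY groups only the IP, where this probe is higher, met the limit for testing, so nothing is read from its call in XY. After normexp its difference in XY was 0.59 (adjusted p = 0.349), or 1.28 (adjusted p = 0.00316) with outlying local backgrounds replaced. A second tested probe of Bmf, A_52_P384394, was brighter and above background on 7 arrays, and its differences of -1.35 ± 0.54 in XX and 0.82 ± 0.54 in XY did not pass the test (adjusted p = 0.0563 and 0.244). At A_51_P482239 the 3.26 in XX and the 4.22 of Bik in XX rest on IPs below background on both arrays. Bcl2a1b in XY (3.78) rests on 1 IP array above background, and its probe is listed for several near-identical genes of its family, so their signals cannot be told apart.

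Xiap, a direct inhibitor of caspases, was higher in the IP by adjusted p at both of its tested probes, and its untested probe A_51_P424893 was above background on no array. A_51_P301216 gave 3.88 ± 0.53 in XX and 1.99 ± 0.53 in XY, where it was above background on 1 of 2 IP arrays, and A_52_P933175 gave 3.14 ± 0.38 and 2.90 ± 0.38. The XX call of the first and both of the second passed both limits, and no other inhibitor of apoptosis did. Diablo, the mitochondrial protein that lifts the block by Xiap, was higher by 2.44 ± 0.44 in XX and 2.41 ± 0.44 in XY on arrays that were all above background. Htra2, a mitochondrial protease released with it, was lower by 2.43 in XX and by 2.25 in XY on the log2 scale. Apaf1 and cytochrome c (Cycs) did not pass the test in either sex.

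Of 8 tested probes of death receptor genes, 1 was higher and 2 were lower in XX by both limits, against 0 and 1 in XY. Among all tested probes the shares were 14.1% and 9.89% in XX and 10.2% and 7.67% in XY. The higher one, Fas in XX, was below background in input and IP. Tnfrsf1a, the first TNF receptor, fell by 3.21 in XX and by 3.14 in XY, and was above background on 1 of 2 IP arrays in each sex. Tradd, its adaptor, fell by 2.65 in XX, or at least 2.77-fold with the IP below background. Of the adaptors of caspase 2, Cradd passed both limits in XX at -2.12, but the IP was below background and the lower limit of the change is 1-fold, so no fall was measured in XX. In XY it passed the adjusted p alone at -1.86 (adjusted p = 0.0045), which stands for a fall of at least 1.55-fold. Pidd1 did not pass both limits. Of the 2 tested probes of other caspases, that of Casp12 passed both limits in XY, with input and IP both below background, and that of Casp6 passed the adjusted p alone in XY at -1.19.

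**Figure D3:**
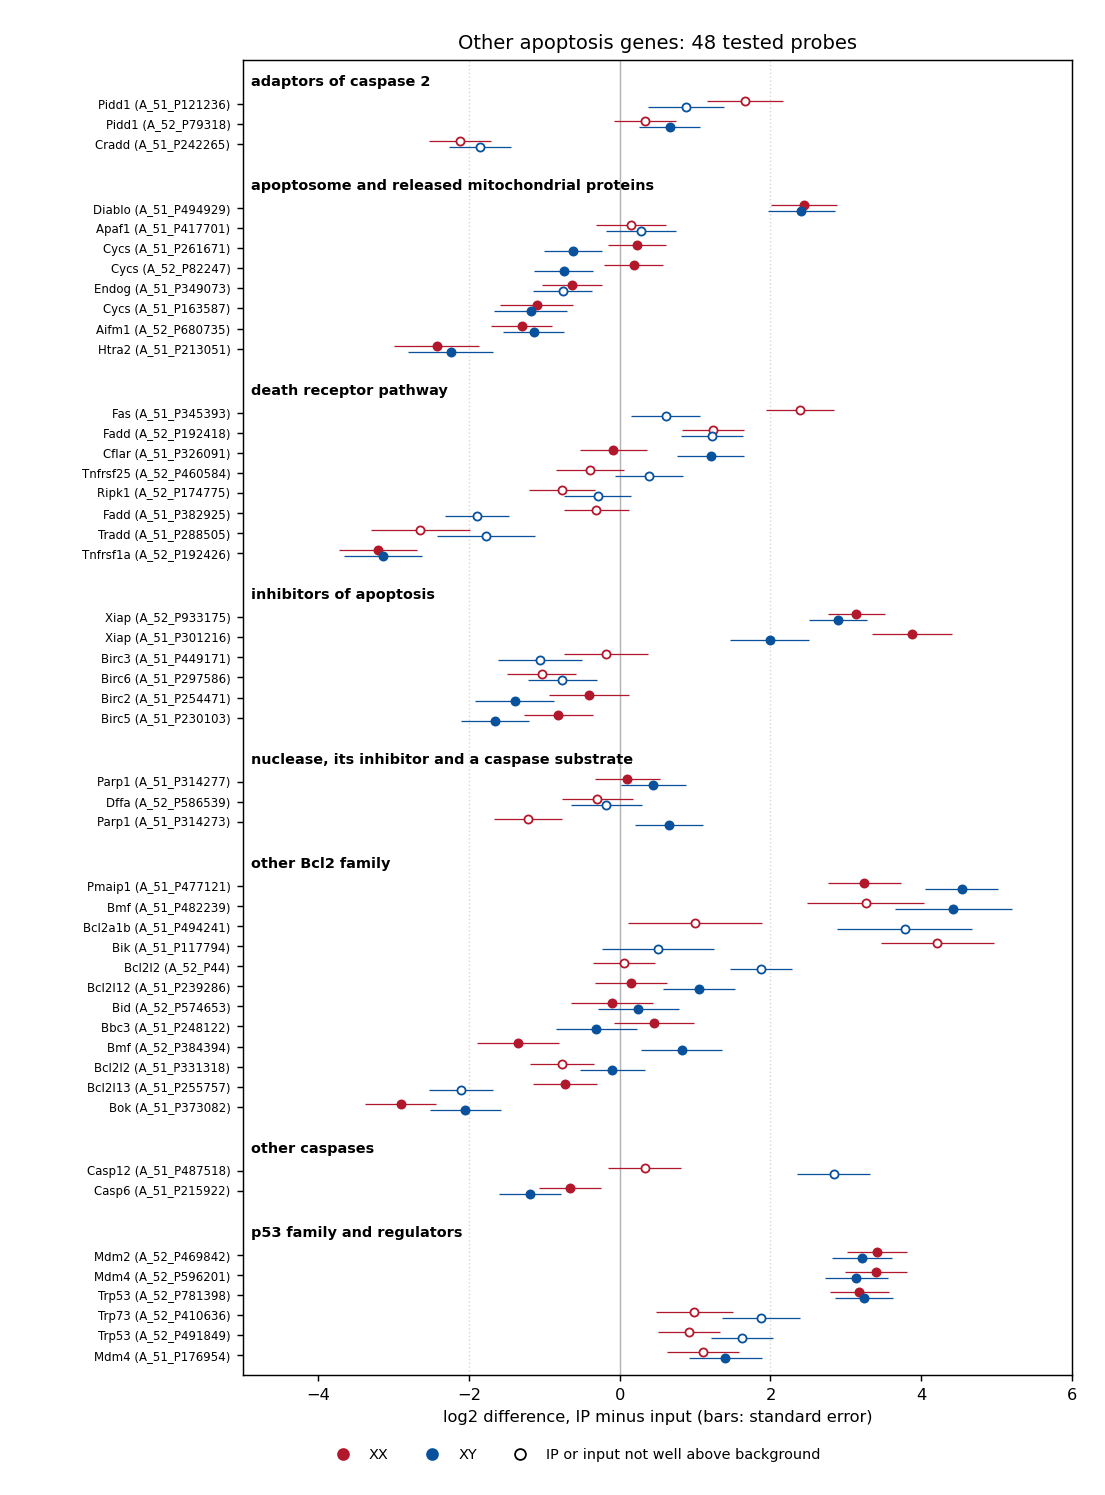
Log2 difference between IP and input (x axis) in XX (red) and XY (blue) for the 48 tested probes of the other apoptosis genes (y axis, by group), with bars for the standard error and dotted lines at 4-fold. Filled points have IP and input above background on at least 1 array each. Mdm2, Trp53 A_52_P781398, Xiap and Diablo lie to the right in both sexes and Tnfrsf1a, Bok and Htra2 to the left, and with the 50th percentile all points move to the left, where Mdm2, that Trp53 probe and Diablo stay above 0 in both sexes, as do the Xiap probes where they were called (1.87 and 1.13 in XX, 1.03 in XY).

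None of the 48 probes passed an adjusted p under 0.05 in limma for the difference between the sexes, with 5 higher and 5 lower at an unadjusted p under 0.05, against 10.2% and 6.25% of all tested probes. In the inputs 1 of the 48, Casp12, was higher in XX and 3, Pmaip1, Bik and Fas, were lower, against 5.87% and 6.1%. Casp12, Bik and Fas were tested only because they were above background in the group where they are higher, so nothing is read from this count. Bik was below background in the XX inputs and at least 1.82-fold lower there, Fas likewise at least 1.63-fold lower, and Casp12 was below background in the XY inputs and at least 2.09-fold lower there. Here too the slide and the sex cannot be told apart.

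**Figure D4:**
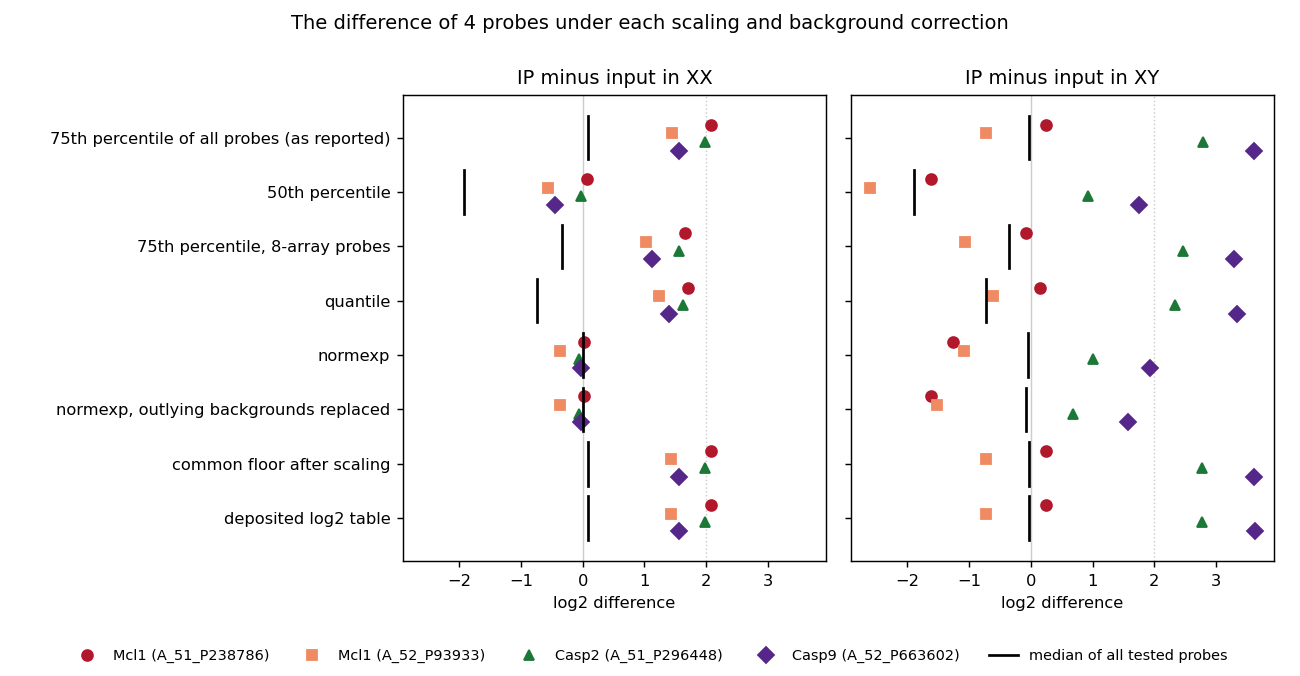
Log2 difference between IP and input (x axis) of both Mcl1 probes, Casp2 and Casp9 in XX (left) and XY (right) under each scaling and background correction (y axis), with a black bar at the median of all tested probes and a dotted line at 4-fold. In XY, Casp9 stays the highest of the 4 probes and above the median under every setting shown, from 1.58 to 3.63, while in XX the 4 probes drop to between -0.56 and 0.07 with the 50th percentile and to between -0.37 and 0.02 after normexp.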

How the data were processed

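Per the file headers, the 8 scanner files came from Feature Extraction 9.5.3.1 and hold background-subtracted intensity by spot, beside marks for spots well above background and for outlying spots. The submitters' processing notes name version 9.5. A further deposited table holds the authors' log2 values, floored at 1 and scaled to the 75th percentile, which correlated at 0.99996 or more with the values used here on every array. The other flags were used as deposited.

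Outlying spots were dropped, signals below 1 were raised to 1, and replicate spots were averaged. The log2 signal was then expressed relative to the 75th percentile over non-control probes. Of 41174 probes, 73 were outlying in all their spots on an array, 41101 were kept, 0 were saturated, and 18265 (44.4%) were tested. Group means were estimated over the 8 arrays in limma 3.58.1 (R 4.3.3), with empirical Bayes moderation, two-sided tests and Benjamini-Hochberg adjustment over the tested probes. An IP was called different from its input at an adjusted p under 0.05 and 4-fold, after the study's own limits, for which it names neither a test nor an adjustment, and the sexes at an adjusted p under 0.05. A group below background on both arrays was given, on each array, the lowest signal above background or its own signal if that was larger, and the fold is then written as "at least". The fit was tested on simulated data before use. Normexp used the mean signal and the local background with an offset of 50.

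Replicates correlated at 0.995 (XX input), 0.964 (XX IP), 0.996 (XY input) and 0.963 (XY IP) over 4206 probes, and having 2 arrays per group limits the precision of each value. Labelled RNA was 50 ng for inputs and 1 ng for IPs, and inputs were 5% of the lysate. All 17 probes of the 9 genes are described whatever their value. Of the other apoptosis genes, probes called in an IP were named, at most 4 per group of genes and sex and those above background on all arrays of that sex first, and others only to complete a count or a gene. A gene of that list is not reported here. The genes, lists and tests were chosen with earlier results of these data known. Probe positions are those of the files, on mm8, and no annotation of that build was used. The exon or untranslated region of a probe is therefore not stated.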

Additional observations from a re-analysis of the deposited data

How the results depend on the processing

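Of the 12 tested probes, 1 was called higher and 1 lower in the XX IP, and 2 and 1 in the XY IP. These counts were the same with a common floor, and with only the arrays of the groups compared. The deposited table gave 2 lower in XX, against 9.94% of all probes. Scaling to the 50th percentile gave 0 higher in both sexes, 5 lower in XX and 7 lower in XY, where 47.3% and 45.9% of all probes were lower, and it moved the median of all probes to -1.92 and -1.90. Normexp correction, with outlying local backgrounds replaced or not, gave 0 in each direction and sex. Without that replacement 0.433% of all probes were higher and 11.2% lower in XX, and 0.345% and 5.84% in XY. Scaling to the probes above background on all 8 arrays gave 0 higher and 2 lower in XX, against 9.15% and 15.6% of all probes. Quantile normalization gave 0 higher in XX, against 8.1% of all probes, with Bcl2 in place of Bax lower in XY. With no filter, 5 of 17 probes were higher in XX and 6 in XY, against 56.8% and 54.4% of all 41101 probes. Among probes above background on all 8 arrays 0 of 4 were lower in either sex, against 8.87% of all such probes in XX and 5.49% in XY. No probe called at 4-fold was called in the other direction under these settings. By adjusted p alone, however, Casp2, Casp9 and Mcl1 A_52_P93933 in XX went from higher to below 0 with the 50th percentile (-0.02, -0.45 and -0.56) and after normexp (-0.06, -0.03 and -0.37), though not significantly, as did Bak1 A_52_P225207 with the 50th percentile (-0.15 in XX, -0.29 in XY) and with quantile normalization in XX (-0.84). Except for the filters, the cause was not tested.

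Leaving out 1 array leaves 1 array in a group, so the range of the differences is given and no count. In XX that of Mcl1 A_51_P238786 ran from 1.67 to 2.50 and that of Bak1 A_51_P395011 from -2.53 to -1.79. Casp2 and Bax in XX, which were not called, ran from 1.59 to 2.39 and from -2.03 to -1.57. In XY, Casp2 ran from 2.37 to 3.20, Casp9 from 3.41 to 3.84 and Bax from -2.47 to -1.72. Bak1 A_52_P225207 in XY, which was not called, ran from 1.06 to 2.10.

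Where 0 probes differed between the sexes in IP minus input, scaling to the probes above background on all 8 arrays gave 2 higher and 1 lower in XX (1.92% and 1.26% of all probes), quantile normalization 1 and 1 (2.69% and 2.32%), and testing those probes alone 0 and 1 (2.33% and 0.594%). When 1 array was left out, this difference ran from -2.32 to -1.81 for Casp9, from 1.37 to 2.30 for Mcl1 A_51_P238786 and from 1.67 to 2.69 for Mcl1 A_52_P93933. For the inputs, where 0 differed, fitting them alone gave 1 higher and 2 lower in XX (22.6% and 21.5% of all probes). Bak1 A_52_P225207, from which nothing is read, was among the lower ones. Quantile normalization and scaling to the probes above background on all 8 arrays gave 1 lower each (3.73% and 5.16% of all probes). When 1 array was left out, the input difference of Casp9 ran from -1.13 to -0.96.

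Deviations of arrays with the same replicate number correlated at 0.031 between input and IP in XX, 0.138 in XY, 0.52 between the inputs and 0.538 between the IPs, and nothing in the labels says that a number marks a pair. With the replicate block 1 probe was higher in XX in the difference between the sexes (Mcl1 A_52_P93933, adjusted p = 0.029) and 1 lower (Casp9, adjusted p = 0.042), as were 960 and 508 of all probes in place of 398 and 204. It changed no other count of the 12 probes.

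Over all probes, 2571 were higher and 1806 lower in the XX IP, and 1863 and 1401 in the XY IP. The 50th percentile gave 189 and 8643 in XX and 219 and 8379 in XY, normexp 79 and 2054, and 63 and 1066, and no filter 23333 and 1807, and 22376 and 1407. Detection limits the IPs most, with 5589 probes in XX and 5517 in XY above background on both arrays against 16443 and 17175 in the inputs.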
